A study of Drosophila melanogaster with 2 samples.

Results

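Small nuclear and small nucleolar RNA genes were examined in the adult hindgut of Drosophila melanogaster at 2 ages. The members were the rows of the authors' deposited table whose identifier maps, in the Ensembl annotation of BDGP6, to a symbol starting with snoRNA:, scaRNA: or snRNA:. Only the stretches of chromosome arm 2L up to base 22247875 and of 3L up to base 5149852 were used, since gene names fit the listed values there. The 21 cytoplasmic ribosomal protein genes in these stretches had a median mean of 56220, with 2 of them under 10. The 71 elsewhere had a median mean of 1.17, with 49 under 10. The 2L stretch ends with RpL21, which is among these genes, so these values are no independent check of the stretches. This gave 84 members, 57 on 2L and 27 on 3L, out of 23932 features in the table and 5237 in the stretches. The other 221 features with such symbols lay elsewhere and were not used. The last member inside the 2L limit was the U4 gene snRNA:U4:39B, with a mean of 16.7 in the authors' deposited table. The first outside it was snoRNA:Psi28S-2996, with a mean of 0.81 in the authors' deposited table. On 3L, snRNA:U11 lay just inside at a mean of 13.8 and snoRNA:Psi18S-1397 just outside at 146 in the authors' deposited table.

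Mature guts came from bynGal4 adults kept for 4 days at 18 °C after eclosion, and young guts from bynGal4 adults dissected as they eclosed. All animals carried the hindgut driver bynGal4 and were raised at 25 °C, and each condition had 3 replicates, with 100 to 150 guts dissected per condition. Age and adult temperature differed together and cannot be told apart, and fewer cells of a type cannot be told apart from less RNA per cell. The sources used here give 1 table for the comparison, with a mean of normalized counts over both ages and no value per library or per age. Fold changes in it run young over mature, so a negative log2 value is higher in mature guts. The labelled tissue was checked against 4 hindgut regulators of the stretches, drm, bowl, cad and wg, which had means of 505 to 13433 in the authors' deposited table. The muscle gene Mhc stood at 428275, and 9 markers of hemocytes, fat body, midgut and Malpighian tubule lay between means of 26.5 and 8852, with none at 0, in the authors' deposited table.

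Small nuclear RNAs form the cores of the spliceosome and of the machine that trims histone mRNAs. Small nucleolar RNAs pair with ribosomal RNA and guide its chemical modification, box C/D RNAs for methylation of the ribose and box H/ACA RNAs for pseudouridine, while small Cajal body RNAs do the same for the snRNAs. In flies most snoRNAs are cut out of the introns of other genes, often genes of ribosomal proteins, whereas snRNA genes have promoters of their own. A symbol such as Me28S-A2113 names the modification, the ribosomal RNA and the guided position.

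The small RNA genes had low means, with a median of 0.82 beside 6.25 over all features of the stretches. Of the 84 members, 32 were listed at a mean of 0, 14 lay above 0 and under 1, 26 at 1 to under 5, 5 at 5 to under 10, and 7 at 10 or over. Their means summed to 258 normalized counts, 0.000876% of the sum over the whole table. The lowest mean above 0 was that of snRNA:U2:38ABb, 0.150 in the authors' deposited table, which over 6 libraries amounts to 0.901 normalized reads in all. Other short RNA genes of the stretches were listed lower still. Of 62 transfer RNA genes, 88.7% were listed at 0 and the highest mean was 1.44, and of 59 precursor microRNA genes 88.1% were at 0 and the highest mean was 3.60. Of the members 38.1% were at 0, beside 30.7% of all 5237 features of the stretches and 37.3% of the whole table. Of 3251 protein-coding genes of the stretches 14.7% were at 0, and of 851 genes annotated as noncoding RNA 64.0%. These values do not show how much of each small RNA the cells held, since the method that made the libraries is not given in the sources used here and RNAs of 67 to 311 bases were read with a 150-base paired protocol.

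**Figure D1:**
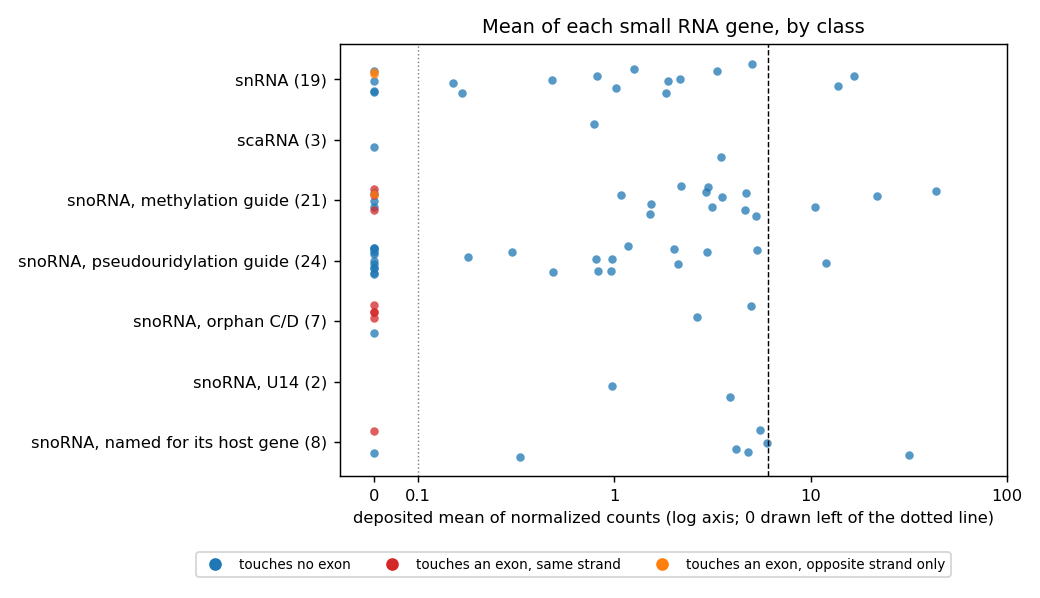
Deposited mean of each of the 84 members (horizontal log axis, 0 drawn left of the dotted line), by class with the number of members in brackets. The dashed line marks 6.11, the lowest mean with an adjusted p in the whole table; 7 members lie to its right, and all 11 members that touch an exon of another gene are at 0.

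The spliceosomal snRNAs were listed at low means apart from 1 copy of U4 and from U11. The stretches held 19 snRNA genes, of which 13 were above 0. Any copies elsewhere are not in the copy numbers and sums given here. U4, which holds U6 inactive before splicing begins, had 3 copies; snRNA:U4:39B stood at 16.7 and the other copies, U4:25F and U4:38AB, at 0 in the authors' deposited table. U5, which holds the exons together, had 6 copies with a summed mean of 5.07, most of it from snRNA:U5:63BC at 3.32 in the authors' deposited table. U2, which pairs with the branch point, had 5 copies with a summed mean of 4.37. The U1 gene snRNA:U1:21D, which recognises the 5′ splice site, stood at 1.84 in the authors' deposited table. Of the minor spliceosome, which removes a rare class of introns, U11 stood at 13.8 and U6atac at 0.81 in the authors' deposited table. U7, the RNA of histone mRNA 3′ end processing, stood at 5.06 in the authors' deposited table. Copies of U2, U4 and U5 are nearly identical, so reads may have been split or dropped among them, and the values of single copies are uncertain.

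The modification guides were led by a box C/D RNA. Of the 21 ribose methylation guides, 14 were above 0, and the median mean of these 14 was 3.35. snoRNA:Me28S-A2113 (FBgn0086039, 2L, 19008611 to 19008683), in an intron of RpL30, had the highest mean of all members, 43.4 in the authors' deposited table. snoRNA:Me28S-A771 (3L, 830437 to 830511), in an intron of Sf3b3, followed among these guides at 21.9, and snoRNA:Me18S-C1831 in RpL27A stood at 10.6 in the authors' deposited table. Of the 24 pseudouridine guides, 13 were above 0, and the median mean of these 13 was 0.973. Of them 1, snoRNA:Psi28S-2648 in RpL36A, reached 10, at 12.0 in the authors' deposited table. Of 7 orphan box C/D RNAs, which have no known target, 2 were above 0. Both copies of U14, an RNA needed to process 18S ribosomal RNA in yeast, were above 0, at 0.977 and 3.90 in the authors' deposited table. Of 8 snoRNAs named for the gene that holds them, snoRNA:Tudor-SN-a (3L, 259970 to 260280) was the highest at 31.7 in the authors' deposited table; at 311 bases it was also the longest member. Over all 84 members, mean and length had a Spearman rho of -0.02.

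Where a member lay in its surroundings went with whether it was listed above 0. In the annotation, 59 members lay in an intron of a gene on their own strand, 8 overlapped an exon of such a gene, 8 lay inside a gene of the opposite strand only, and 9 lay in no other gene. Of the 59 in introns, 43 were above 0, whereas none of the 8 that overlapped an exon was. A further 3 members overlapped an exon of the opposite strand only, and these were also at 0: U4:25F, U2:34ABc and Me28S-A2634c. Thus all 11 members that touched an exon of another gene, on either strand, were listed at 0, against 21 of the 73 that touched none. Other features of the stretches were at 0 where they were wholly covered. All 235 whose exons lay wholly within exons of another gene on the same strand were at 0, as were all 39 covered wholly on the opposite strand, against 25.6% of the 2802 that shared no exon base. Of 238 that shared only part of their exon bases on the same strand, 28.6% were at 0, and of 961 that shared only part, all of it on the opposite strand, 9.57% were. Touching an exon in part thus did not go with a 0 among other features of all lengths as it did among the members Or-CD11a, Or-CD11b and U4:25F. Length went with this contrast. Among other features no longer than the longest member, all 155 wholly covered on the same strand were at 0. Of 42 such short features that shared only part of their exon bases on the same strand, 83.3% were at 0. Of the 118 short features that shared no exon base, 72.9% were at 0. A mean of 0 for these 11 members was therefore not read as a lack of the RNA. How the authors' counting treated such reads is not given in the sources used here.

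Within single genes the contrast was between neighbours. Uhg3, a noncoding gene whose introns hold snoRNAs, carries 3 copies of the guide Me28S-C2645. Copy b, in an intron, had a mean of 5.30, and copies a and c, inside exons of some Uhg3 transcripts, were at 0 in the authors' deposited table. In RpL28, a ribosomal protein gene, Or-CD11c in an intron stood at 2.63, while Or-CD11b and Or-CD11a, which overlap exons by 33 and 28 of their 67 bases, were at 0 in the authors' deposited table. In Sf3b3, a subunit of the U2 particle, 8 of its 9 snoRNAs were above 0, from 0.96 for Psi18S-1086 to 21.9 for Me28S-A771 in the authors' deposited table. The other, Me5.8S-G74, lies wholly in an exon of the noncoding gene lncRNA:CR45184 and was at 0 in the authors' deposited table. Arpc2, a subunit of the Arp2/3 actin nucleator, differed from these, since none of its 17 pseudouridine guides touches an exon. In intron 1 of the transcript with the most exons, 10 of 11 guides were at 0 and Psi18S-525a stood at 0.300, while in intron 5 all 6 were above 0, with a summed mean of 7.37 in the authors' deposited table. These guides are copies in 2 families, Psi18S-525 and Psi18S-640, so reads may have been split or dropped among copies; this was not tested.

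**Figure D2:**
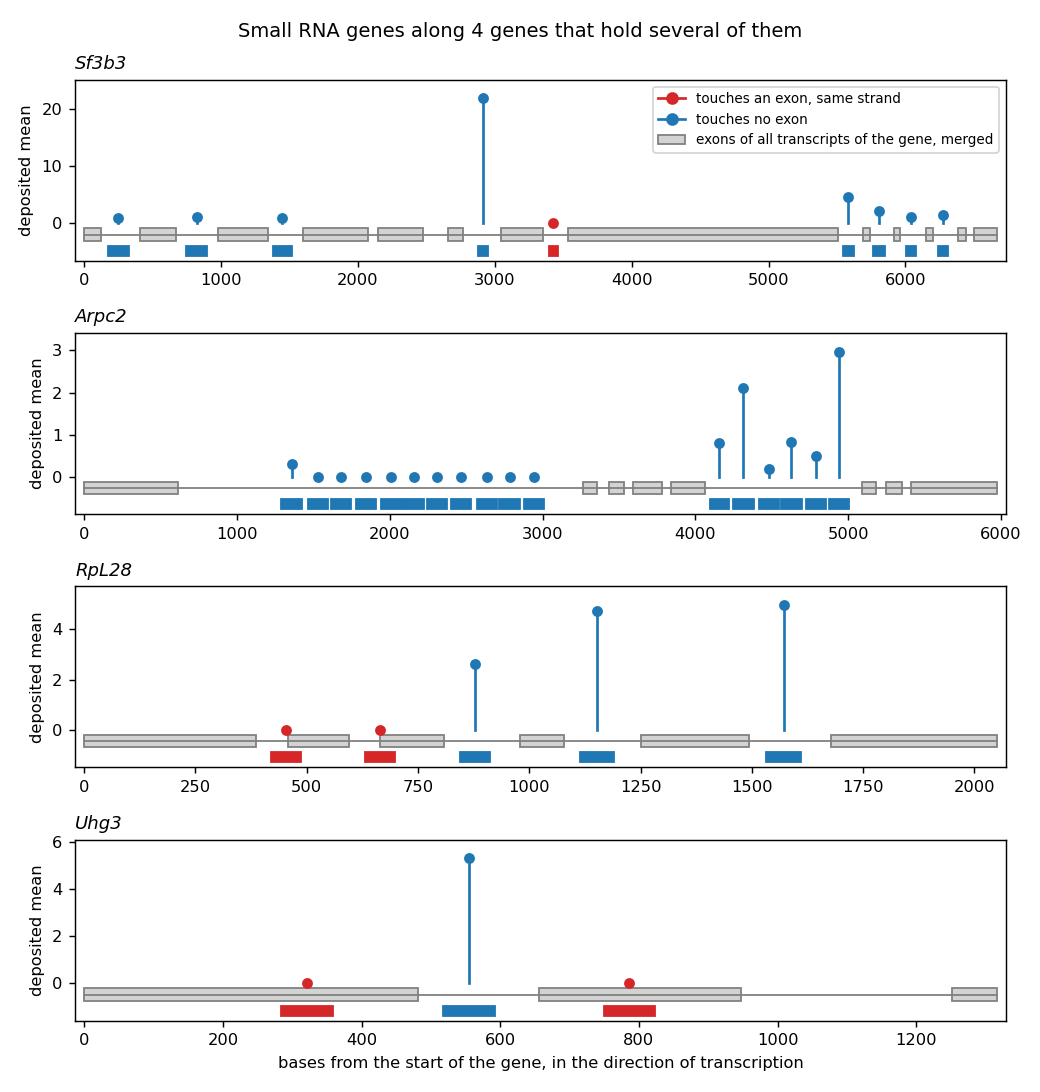
Members along the genes Sf3b3, Arpc2, RpL28 and Uhg3: bases from the gene's start in the direction of transcription (horizontal) and deposited mean (vertical), with exons as grey boxes and members as coloured boxes under them. Members in red touch an exon on their strand and are at 0; the red member of Sf3b3 lies in an exon of lncRNA:CR45184, which is not drawn.

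Whether these RNAs differed between mature and young hindguts was asked of the 7 members with an adjusted p. None passed an adjusted p of 0.05 in the authors' deposited DESeq2 test in either direction. Of all tested features of the stretches 40.3% passed, and of the 352 with means in the range of these 7 members 13.9% did. Without adjustment none of the 52 members with a DESeq2 p was under 0.05, and the smallest was 0.0589. Of all features of the stretches with a p 35% were, but this share is not matched for level. Among 345 other features in the mean range of the 7 members, 72 were under 0.05. None was among the 7 transfer RNA and 7 precursor microRNA genes with a p, which also had low means. Neither list of changed genes that the authors deposited, 91 mature and 132 young, held a member.

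Among the 7, Me28S-A2113 had a log2 estimate of -0.29 (standard error 0.45 and adjusted p = 0.702), Me28S-A771 -0.09 (0.50, 0.927), Psi28S-2648 -0.17 (0.53, 0.858) and Me18S-C1831 -0.20 (0.53, 0.836) in the authors' deposited DESeq2 table. The 3 with positive estimates were Tudor-SN-a at 0.68 (0.48, 0.306), U4:39B at 0.16 (0.53, 0.871) and U11 at 0.11 (0.52, 0.914) in the authors' deposited DESeq2 table. Me28S-A2113, the member with the highest mean, had a 95% interval from 0.441-fold to 1.52-fold, young over mature. An estimate had to reach 1.10 to 1.28 on the log2 scale, 2.14-fold to 2.43-fold, to pass at the standard errors of these members. Smaller estimates could not pass at these standard errors, so the lack of a call does not show that an age difference was absent. For 3 of the 7 the standard error lay within 0.01 of 0.531, the highest in the whole table. The median standard error was 0.52 for these 7 and 0.26 for members under a mean of 1, so it was smaller at lower means. Estimates of these 7 may also have been drawn toward 0 in the authors' fit. The interval and the fold limits take them as deposited, and would then understate the difference that could be missed.

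The 45 members with a p but a mean too low for an adjusted p had standard errors of 0.26 to 0.51, with a median of 0.37, and log2 estimates from -0.66 to 0.92, with a median size of 0.20. Members under a mean of 1 had a median absolute log2 change of 0.11, so their estimates may have been drawn toward 0 in the authors' fit, and no interval is given for them. The largest log2 change among them was that of Psi18S-525k, a pseudouridine guide in the nesprin gene Msp300, 0.92 (standard error of 0.48 and p = 0.0589) at a mean of 5.33 in the authors' deposited DESeq2 table. Both snoRNAs of the deubiquitinase gene Usp10 had negative estimates, CG32479-a at -0.66 and CG32479-b at -0.56 in the authors' deposited table, with p = 0.181 and 0.195 by DESeq2. Over the 52 members 32 estimates were below 0 and 20 above it, with a median of -0.07, beside a median of -0.0003 over all features of the stretches with an estimate.

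**Figure D3:**
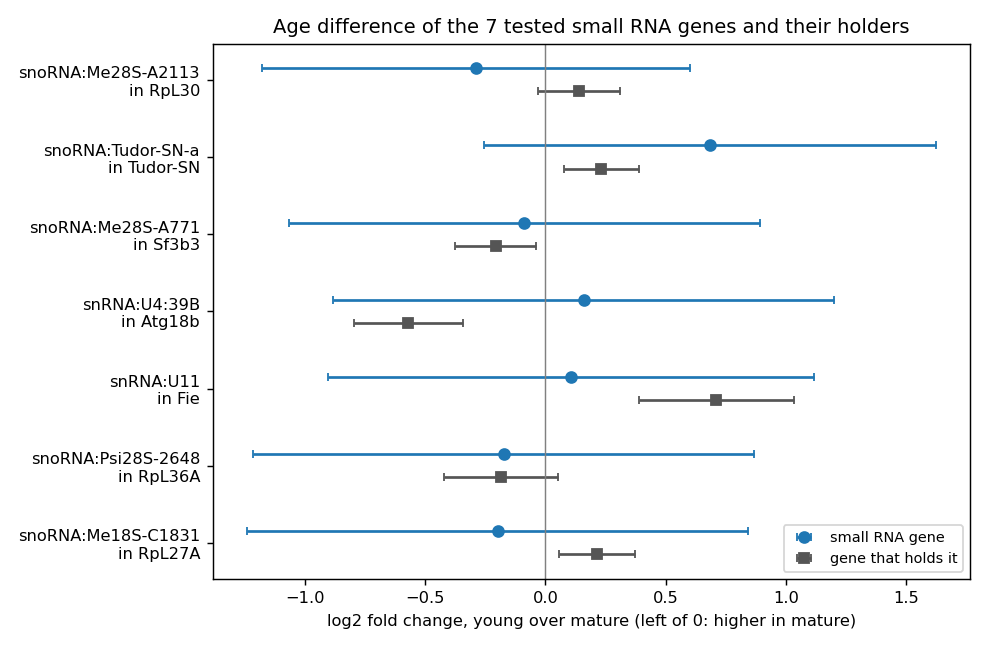
Log2 fold change, young over mature, of the 7 members with an adjusted p (circles) and of the gene whose span holds each (squares), with 95% intervals of 1.96 standard errors. All 7 member intervals include 0, while those of Tudor-SN, Sf3b3, Atg18b, Fie and RpL27A do not.

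Each member was then compared with the gene whose span holds it, the shortest such gene with a p on either strand. This gave 31 genes for 74 members, 28 protein-coding and 3 noncoding, with means of 0.321 to 136873. Per kilobase of exon the holding gene was higher than the member in all 46 pairs with both values, by 1.53-fold to 2229-fold, and at least 10-fold higher in 41 of them. Me28S-A2113 had 594 normalized counts per kilobase and RpL30 around it 48254. The closest pair on the same strand was snRNA:U5:23D, at 9.65 per kilobase, in FASN2, a fatty acid synthase gene, at 23.7. Me28S-A771 stood at 292 per kilobase in Sf3b3 at 866. The rank correlation of member mean with holder mean over the 74 members was 0.05.

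Of the 31 genes, 8 were higher in mature guts and 5 higher in young guts by the deposited DESeq2 test, and 20 members lay in them. The called share, 43.3% of the 30 with an adjusted p, was near the 40.3% of all tested features. The member's log2 change was set against that of its holder by a two-sided z test, with Benjamini-Hochberg adjustment over all 455 nested pairs of the stretches. Of the 46 pairs with a member, 1 passed an adjusted p of 0.05, against 14.9% of all 455, and over the 46 pairs 20 members were below their holder and 26 above it, with a median difference of 0.04. In 39 of the 46 pairs the member's mean was too low for an adjusted p, so its estimate may have been drawn toward 0, and the difference may then mostly restate the holder's own change. That pair was Psi28S-2622, a pseudouridine guide, in stet, a rhomboid protease gene on the opposite strand. The guide had a log2 change of 0.37 (standard error 0.37) and stet one of -1.38 (0.50), which is 2.60-fold higher in mature guts (DESeq2 adjusted p = 0.0224), as the authors deposited them. The difference was 1.75 (standard error 0.62, adjusted p = 0.0352 by the z test). Its means were low, 2.02 for the guide and 56.3 for stet in the authors' deposited table, and the pair does not enter when the holder must be on the same strand or when both genes must have an adjusted p, where none of 7 passed.

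The 7 tested members had differences whose 95% intervals all included 0. snRNA:U4:39B lies in Atg18b, an autophagy gene 1.48-fold higher in mature guts, and was 0.73 above it (standard error 0.54). snRNA:U11 lies opposite Fie, a gene 1.64-fold higher in young guts, and was 0.60 below it (0.54). Me28S-A2113 was 0.43 below RpL30 (0.46), and Tudor-SN-a was 0.45 above Tudor-SN (0.49), a nuclease gene. The other 3 were 0.41 below RpL27A (0.54), 0.12 above Sf3b3 (0.51) and 0.01 above RpL36A (0.54).

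Of the 8 members with an estimate in ribosomal protein genes, 6 were below their holder and the differences ran from -0.64 to 0.07, with none passing (smallest adjusted p = 0.446 by the z test). Of the 6 members with an estimate in RpL28, RpL23A and RpL27A, 5 were below 0, beside 32 of all 52 members with an estimate. These 3 genes were taken because they were called higher in young guts, at log2 0.27, 0.27 and 0.21 in the authors' deposited table. Of the 6 members only Me18S-C1831 had an adjusted p, and an estimate drawn toward 0 falls below such a holder. The counts are therefore not read as a change opposite to that of the holders. In Uhg2, a noncoding snoRNA host gene with a log2 change of 0.07, its 4 snoRNAs ranged from -0.55 for Me18S-A1576 to 0.40 for U14:30Eb in the authors' deposited table. Holders and members share libraries, and members inside the same gene are set against the same holder, so these pairs are not independent.

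**Figure D4:**
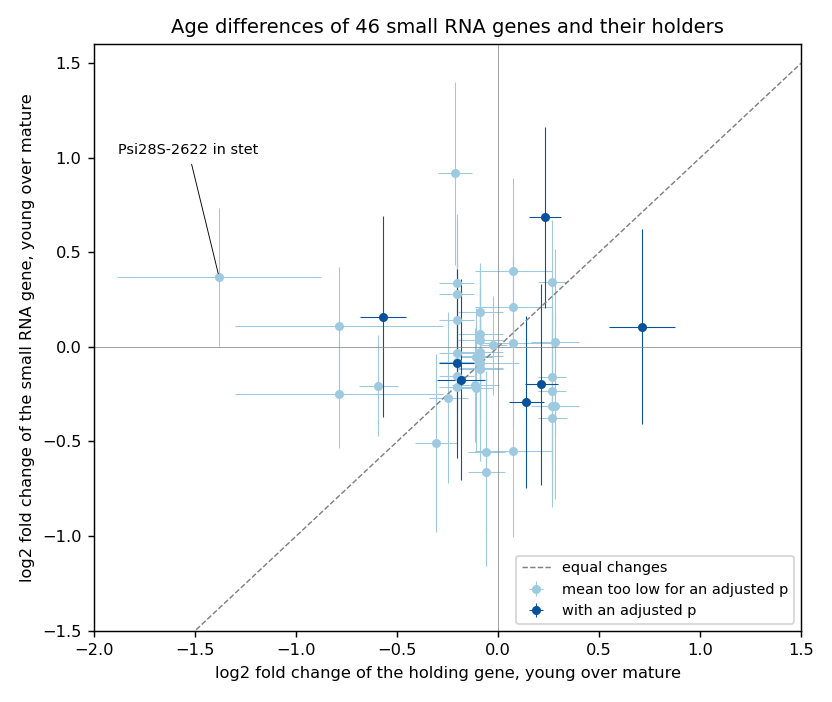
Log2 fold change, young over mature, of the holding gene (horizontal) and of the small RNA gene (vertical) for 46 pairs, with bars of 1 standard error; pale points had a mean too low for an adjusted p. Member estimates run from -0.66 to 0.92, the dashed line marks equal changes, and the labelled pair, Psi28S-2622 in stet, is the 1 that passed.

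Protein genes that build or process these RNAs and lay in the same stretches were mostly listed at much higher means. The stretches held at most a part of each list. Of the genes found in the whole table, they held 2 of 4 box C/D proteins and 4 of 13 Sm and Lsm proteins. They also held 6 of 24 snRNP-specific proteins and 4 of 26 genes of snRNA transcription and 3′ end processing. Of 28 such genes in 8 lists, 26 were tested, with means of 288 to 90759. LSm-4 and Snup, at a mean of 0 in the authors' deposited table, were not tested. Of the 26, 4 were higher in mature guts, none was higher in young guts and 22 missed the threshold of the deposited DESeq2 test. Their median log2 change was -0.21, against -0.0070 over all tested features of the stretches, and 25 of the 26 estimates were below 0, against 50.5% of all tested features. Of all tested features of the stretches, 19.7% were higher in mature guts and 20.7% in young. The share of the 26 called higher in mature guts lay below the first of these. The comparisons with all tested features are not matched for level. Tissue markers of the stretches also changed. Of 7 hindgut and muscle markers, 5 were higher in young guts, among them Mhc at a log2 change of 0.90 and drm at 0.96, and 2 in mature guts, bowl at -0.29 and Msp300 at -0.21, in the authors' deposited table. Of the 9 markers of other organs, 4 were higher in young guts, 2 in mature guts and 3 were not called in the authors' deposited table. Among those not called, Jon25Biii had no p-value and so was not tested. Midgut genes went both ways, with Try29F at 3.82 and Jon25Bi at -1.58 in the authors' deposited table. So did hemocyte genes, with NimC1 at 1.54, Sr-CI at 1.43 and crq at -0.57 in the authors' deposited table. The fat body gene Lsp1beta was at 2.84 in the authors' deposited table. The part of these tissue markers in the changes of the protein genes was not tested. La, which binds the ends of new RNA polymerase III transcripts such as U6, was 1.57-fold higher in mature guts by the authors' deposited values, with a log2 change of -0.65, a standard error of 0.10 and DESeq2 adjusted p = 5.13e-10. Ns4, listed with ribosome biogenesis, had a log2 change of -0.52 (adjusted p = 2.10e-06), Bdp1, a subunit of the initiation factor TFIIIB, -0.35 (0.00950) and LSm7, of the ring that binds U6, -0.42 (0.0342) in the authors' deposited DESeq2 table.

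Of the core proteins of the particles that lay in the stretches, LSm7 apart, none passed. Of box C/D proteins, hoip had a log2 change of -0.31 and nop5 -0.14, with adjusted p = 0.154 and 0.372 in the authors' deposited DESeq2 table; no box H/ACA protein of the list lay in the stretches. Of Sm proteins, SmE had -0.29 and SmB -0.11 (adjusted p = 0.0744 and 0.460), and of 6 snRNP-specific proteins none passed, Sf3b3 being nearest at -0.21 (0.0514) in the authors' deposited DESeq2 table. The 1 gene tested of snRNP assembly and transport, vls, did not pass (log2 -0.15, DESeq2 adjusted p = 0.514), nor did mbm, Polr1B and Nnp-1 of ribosome biogenesis. None of 4 exosome genes passed, with Mtr4 at -0.41 (adjusted p = 0.0664) in the authors' deposited DESeq2 table, nor did the 2 snoRNP assembly genes, Hsp83 at -0.26 and CG10341 at -0.09. Of 4 genes of snRNA transcription and 3′ end processing the other two, IntS10 and IntS14 of the Integrator complex, had -0.34 and -0.14 in the authors' deposited table. The 19 cytoplasmic ribosomal protein genes tested, by contrast in sign, had 9 higher in young guts, none in mature guts and a median log2 change of 0.17. With all changes recentred on those genes, 17 of the 26, 65.4%, were higher in mature guts and none in young, while of all 2604 tested features 31% were then higher in mature guts and 15.8% in young. Recentring subtracts 0.17 from every log2 change, and 25 of the 26 estimates were already below 0 as deposited. The 2 sets are not matched for level.

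**Figure D5:**
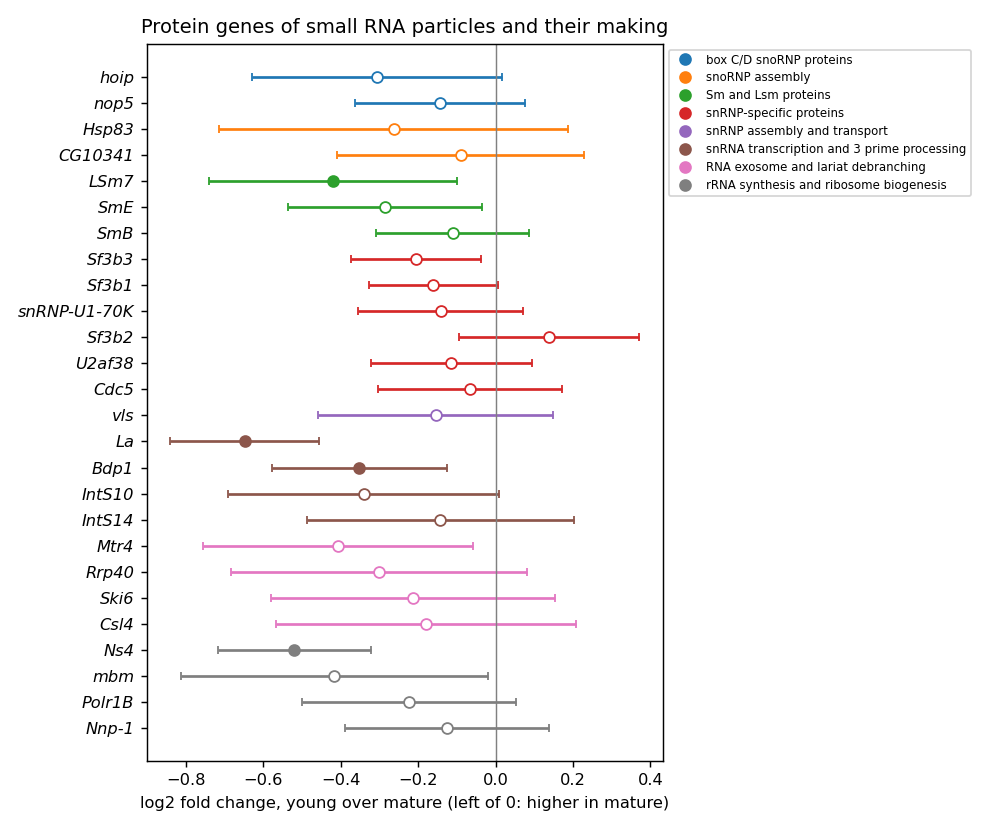
Log2 fold change, young over mature, of 26 tested protein genes of small RNA particles and their making, with 95% intervals of 1.96 standard errors; filled points passed an adjusted p of 0.05. La, Ns4, LSm7 and Bdp1 passed, all left of 0, and Sf3b2 is the 1 gene right of 0.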

How the data were processed

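Hindgut total RNA was extracted with Trizol and sequenced in pairs (NovaSeq), per the labels' protocols. The submitters' processing notes name Trim Galore, HISAT2, DESeq2 and the build BDGP6, with no versions. Which program counted reads, with which strand setting and annotation, is not given in the sources used here. Per the file headers, the authors' deposited table holds a mean of normalized counts, a signal that is never negative. It also holds a log2 fold change of young over mature with its standard error, a Wald score, a p-value and an adjusted p-value, as deposited by the authors. The labels do not say how the 3 replicates per age were formed, so p-values cover only the spread among libraries, possibly technical. Depth by library is unknown here; all means summed to 2.94e+07.

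Of 23932 identifiers, 23851 matched the Ensembl annotation, release 115, of BDGP6, whose 1-based positions, exons and strands gave lengths, holding genes and overlaps. The stretches end with RpL21 on 2L and AlaRS-m on 3L. The edgeR test needs counts per library and was not run. Members, lists and tests were chosen with earlier results of these data known. Named genes were all members with an adjusted p and their holders, the members with the highest means, and up to 4 per protein list by smallest p. Others, and the exon overlaps, were chosen after their values were seen. The z test of a member against its holder adds squared standard errors as if independent, and was tested on simulated data whose estimates were not drawn toward 0. Alternatives changed the threshold, the adjustment, the centring and the choice of holder. Python 3.11.15 was used, with matplotlib 3.10.9, scipy 1.17.1, numpy 2.4.6 and pandas 2.3.3. Sequences were not used here.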

Additional observations from a re-analysis of the deposited data

How the results depend on the processing

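No member passed in either direction with an adjusted p under 0.01, with adjustment over every feature with a p (52 members, smallest adjusted p = 0.206), with adjustment over the stretches alone (0.263) or after subtracting 0.17, the median log2 change of 19 ribosomal protein genes (0.450), beside 0.306 by DESeq2 as deposited. No member had a mean of at least 100, so that alternative gave no value. Of the 46 pairs, 1 passed as reported. Taking the holder with the highest mean changed the holder of 0 member pairs, so it gave the same 1 by construction. None (0) passed among 43 pairs with a holder on the same strand (smallest adjusted p = 0.122, with 11.1% of all 162 such pairs passing), and 0 among the 7 pairs with both adjusted p-values (0.365, with 24.4% of all 225 passing); both alternatives leave out Psi28S-2622 by construction. With the error of the small RNA alone, which narrows the error by construction, 2 passed, Psi28S-2622 and snRNA:LU in FASN2, beside 25.1% of all 455 pairs. Adjusted p under 0.01 left 3 of the 4 protein genes higher in mature guts. No paired analysis was possible because no column gives a library's own value; leaving out replicates and other normalizations were not run for the same reason. At the standard errors of the 7 tested members, only estimates of at least 2.14-fold to 2.43-fold, depending on the member, could pass. The other members allow no reading of an age difference, and depth by library is unknown.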
